A study of Mus musculus with 933 samples.

Results

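Single mouse embryos at the 2-cell stage were compared between 18 and 28 h after ICSI (intracytoplasmic sperm injection, fertilization by putting 1 sperm into the egg with a needle). The comparison covers the 93 embryos labelled 18 h or 28 h out of 933 embryos in the whole series, chosen by their labels and not by any measured value. They are FVB embryos of the 2-cell stage into which no further RNA was injected. Of these, 44 were taken at 18 h, 19 made with sperm of the caput epididymis (the upstream end of the duct) and 25 with sperm of the cauda epididymis (the downstream end, where sperm are stored). The other 49 were taken at 28 h, 25 of caput and 24 of cauda sperm. The number at the end of each sample description, 114, 122 or 126, is called a session here, and each session holds embryos of all 4 groups. A further 19 embryos at 24 h (11 caput and 8 cauda) all carry another session number, 46, so at 24 h time and session cannot be told apart, and their values are given with no test. The growth and extraction notes state 28 h for every sample, while the titles and the first row of the table give 18, 24 or 28 h for each embryo, and the titles were used. Levels in 64 uninjected 4-cell embryos (32 of each sperm source) come from another table that was normalized separately and are likewise given with no test.

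A mouse egg carries RNA and protein stored during oocyte growth, and the embryo at first lives on this maternal supply. Transcription of the embryo's own genome starts weakly in the late zygote (the minor wave) and rises sharply late in the 2-cell stage (the major wave), while much of the maternal RNA is degraded. Early transcribed genes include Dux, a homeobox factor that switches on a short-lived 2-cell programme, the Zscan4 zinc finger genes and members of the oocyte-specific homeobox (Obox) family. The major wave is known for genes of ribosome production, RNA processing and protein synthesis.

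Values are TPM, a length-scaled share of all listed transcripts in an embryo, so a rise or fall is relative to the other genes. Total RNA per embryo was not measured, and a smaller share and a loss of molecules cannot be told apart. The deposited values keep no read counts and the depth of each library is unknown. Embryos at 18 h had between 9404 and 11894 genes at 1 TPM or more, and those at 28 h had between 9941 and 12629. A stage index was computed for each embryo as the mean log2(TPM + 1) of 200 rising genes minus that of 200 falling genes. These were the genes with the strongest change relative to its error (t statistic). For each 18 h or 28 h embryo they were chosen in the other sessions, and 24 h embryos got the mean over these gene sets. The index rests on the same comparison of times, so it only places single embryos and tests nothing. At 18 h the index lay between -6.47 and -4.73 with a median of -5.65, and at 24 h between -4.90 and -0.64 with a median of -2.49. At 28 h it lay between -1.13 and 2.47 in 48 of 49 embryos. The remaining one, cauda 28 h replicate 1 of session 114, had an index of -6.06, inside the range of the 18 h embryos and outside that of all other 28 h embryos. It had 105 TPM of Sertad3 and 605 TPM of Rnf34, both within the ranges of the 18 h embryos, against at most 71.8 and 220.2 TPM in the other 28 h embryos. It kept its label in the tests, and values without it are given where they matter. Among the other 28 h embryos, 8 of 25 caput embryos and 1 of 23 cauda embryos had an index under 0.5. That cut is arbitrary and the counts depend on it: caput embryos at 0.466 and 0.472 lie just below and a cauda embryo at 0.605 just above. The medians of all caput and all cauda 28 h embryos were 1.39 and 1.45, and a difference between the sources was not tested.

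**Figure D1:**
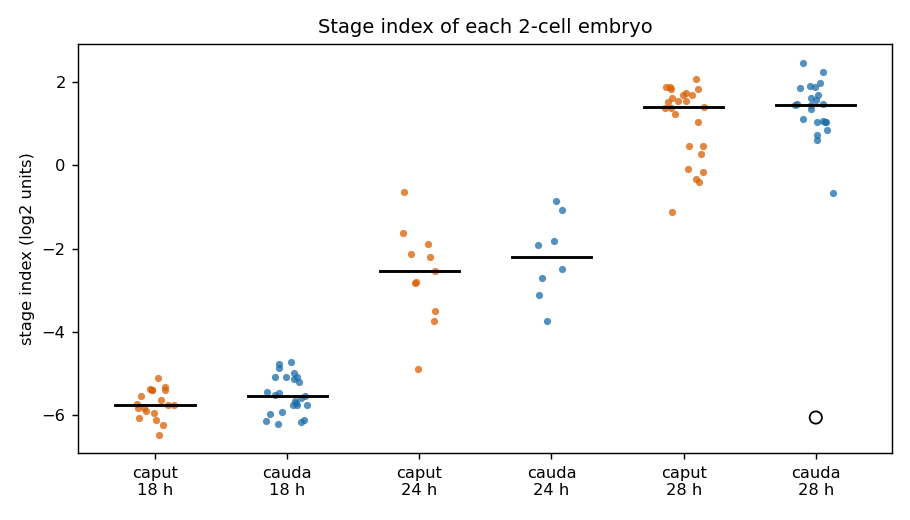
Stage index (y axis, log2 units) of each 2-cell embryo by sperm source and hours after ICSI, with a point per embryo and a bar at each group's median. The 18 h, 24 h and 28 h medians are -5.65, -2.49 and 1.44, and the open circle marks cauda 28 h replicate 1 at -6.06, level with the 18 h embryos.

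Most of the measured transcriptome changed its share between 18 and 28 h. In a linear model on log2(TPM + 1) with sperm source and session as covariates (limma, Benjamini-Hochberg adjustment over all 13343 genes tested), 5179 genes (38.8%) were higher and 5443 (40.8%) lower at 28 h at an adjusted p under 0.05, 79.6% in all. The median log2 change of all genes tested was -0.07, and quantile normalization shifted it by -0.16. The direction of changes of about that size can depend on the scaling. At larger folds rises outnumbered falls. Called genes at least 2-fold higher numbered 3096 (23.2%) and those at least 2-fold lower 2595 (19.4%). At 8-fold the counts were 691 (5.18%) higher and 52 (0.39%) lower. After quantile normalization the calls numbered 4635 higher and 6259 lower of all 13343 genes. List counts given below after quantile normalization stand beside these numbers. With the scaling as deposited and without cauda 28 h replicate 1 the calls numbered 5223 higher and 5454 lower. In the 92 remaining embryos, 411 genes (3.08%) were higher in every 28 h embryo than in any 18 h embryo and 101 (0.757%) were lower in every one. The 3 sessions gave the same direction for 10410 of the 10622 called genes (98.0%), against 36.2% of the genes that were not called. The calls come from a fit over these same sessions, so the 2 shares differ in part by selection and are no independent support.

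Wide changes were seen with either sperm source. Within caput embryos 4913 genes (36.8%) rose and 4310 (32.3%) fell, and within cauda embryos 4501 (33.7%) rose and 5135 (38.5%) fell. Of these, 8168 genes were called in both sources in the same direction and 5 in opposite directions. A test of the difference between the caput and the cauda change called 0 of 13343 genes (limma, interaction term, 0.0%), with 1231 at an unadjusted p under 0.05 and a smallest adjusted p of 0.122. A p that misses the threshold does not show that the 2 changes are equal.

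The 10 named genes with the largest rise went from medians of a few TPM to far higher medians. Obox6, an Obox homeobox gene at chr7:15833250-15839679 (mm10; RefSeq GRCm38.p6), had a median of 3.46 TPM at 18 h with a range of 0 to 33.9. At 28 h its median was 832 TPM with a highest value of 1506. Its lowest value at 28 h was 129 TPM without cauda replicate 1, which had 9.39, so no other 28 h embryo overlapped the 18 h embryos. The fitted rise was 145-fold on the log2(TPM + 1) scale (log2 change 7.18 ± 0.27, adjusted p = 2.15e-43, ± SE as for all log2 changes below; 44 and 49 embryos). Within the sessions the log2 change was 6.40, 7.71 and 7.36 in 114, 122 and 126.

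Trim43a and Trim43c, members of the Trim43 family on chromosome 9 (chr9:88580891-88588824 and chr9:88839164-88848190), rose together. Trim43a had a median of 4.1 TPM at 18 h (0 to 23.1) and 566 TPM at 28 h (3.34 to 1021), with a log2 change of 6.76 ± 0.26 (adjusted p = 2.41e-43). Trim43c had a median of 3.48 TPM at 18 h (0 to 19.3) and 548 TPM at 28 h (1.53 to 984), with a log2 change of 6.81 ± 0.26 (adjusted p = 9.26e-44). In both, the lowest 28 h value is that of cauda replicate 1, and without it the lowest were 156 and 143 TPM, above every 18 h embryo. Reads of such close copies may be shared between them, so their separate levels are uncertain. Zscan5b, a SCAN domain zinc finger gene, had a median of 5.78 TPM at 18 h (0 to 34.5) and 745 TPM at 28 h (4.65 to 1217), with a log2 change of 6.67 ± 0.26 (adjusted p = 5.49e-43).

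The other 6 had various roles. Vimp (Selenos), a selenoprotein of the endoplasmic reticulum that acts in disposal of misfolded proteins, had a median of 3.31 TPM at 18 h (0 to 25.2) and 678 TPM at 28 h (0 to 1790.0), with a log2 change of 6.73 ± 0.31 (adjusted p = 2.6e-37). Cd63, a tetraspanin of late endosomes, had a median of 3.65 TPM at 18 h (0 to 16.2) and 439 TPM at 28 h (0 to 974), with a log2 change of 6.61 ± 0.30 (adjusted p = 4.55e-38). Folr1, a folate receptor, had a median of 1.89 TPM at 18 h (0 to 13.2) and 314 TPM at 28 h (0 to 481), with a log2 change of 6.69 ± 0.26 (adjusted p = 2.52e-42). These 3 were at 0 in some embryos at 18 h and, of the 28 h embryos, at 0 in cauda replicate 1. Rab20 (a small GTPase of endosomes), Ankrd10 (an ankyrin repeat gene) and Btbd18 (a BTB domain gene known from male germ cells) completed the 10, with log2 changes of 6.59 ± 0.29, 6.45 ± 0.24 and 6.41 ± 0.24. All 10 were without overlap between 18 and 28 h once cauda replicate 1 was left out, beside 3.08% of all genes. They were picked for their large rise in these same embryos, which makes such a separation likely. At 24 h their mean levels lay in between, from 44.8 TPM for Btbd18 to 186 TPM for Trim43a. In 4-cell embryos Zscan5b and Btbd18 had lower means than at 28 h (381 and 158 TPM), and the other 8 had higher means, up to 3067 TPM for Cd63.

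The genes that fell most were all present in every 18 h embryo. Dux had a median of 109 TPM at 18 h (24.6 to 302) and 4.13 TPM at 28 h (0 to 73.8), with a log2 change of -4.55 ± 0.25 (adjusted p = 1.88e-31). The highest 28 h value was that of cauda replicate 1, and without it the highest was 30.9 TPM, above the lowest 18 h value. Its mean was already 15.2 TPM at 24 h. Dux copies lie in a repeated array, so reads cannot be given to 1 copy.

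Rnf34, a RING-type ubiquitin ligase, had a median of 589 TPM at 18 h (329 to 744) and 49.4 TPM at 28 h (5.02 to 605), with a log2 change of -3.49 ± 0.15 (adjusted p = 1.49e-39). Rgs2, which shortens signalling by the Gq class of G proteins, had a median of 506 TPM at 18 h (239.5 to 819) and 38.8 TPM at 28 h (11.2 to 595), with a log2 change of -3.48 ± 0.16 (adjusted p = 4.83e-37). Sertad3, a transcriptional co-regulator, had a median of 152 TPM at 18 h (95 to 277) and 15.8 TPM at 28 h (0 to 105), with a log2 change of -3.56 ± 0.27 (adjusted p = 1.82e-22). Casp8, an initiator caspase of programmed cell death, had a median of 22 TPM at 18 h (8.68 to 54.5) and 0.41 TPM at 28 h (0 to 31.2), with a log2 change of -3.54 ± 0.19 (adjusted p = 6.83e-32). Without cauda replicate 1 the 28 h values of Rnf34, Sertad3 and Casp8 all lay below every 18 h embryo, and those of Rgs2 overlapped with them. Of all genes 0.757% were lower without overlap, and the genes here were picked for their large fall in these same embryos. The other genes among the 10 were Ndufa8 (a subunit of respiratory complex I, -4.26 ± 0.27), Suclg1 (a succinate-CoA ligase subunit of the citric acid cycle, -3.55 ± 0.24), Mitd1 (a midbody protein of cell division, -3.81 ± 0.24), Zfp383 (a zinc finger gene, -3.58 ± 0.18) and Tmem261 (-3.52 ± 0.26), given as log2 changes. Ndufa8 and Suclg1 had higher means in 4-cell embryos (137 and 103 TPM) than at 18 h (71.4 and 29.6 TPM). Dux, Zfp383, Sertad3, Casp8 and Rgs2 stayed at 6.66 TPM or less there.

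**Figure D2:**
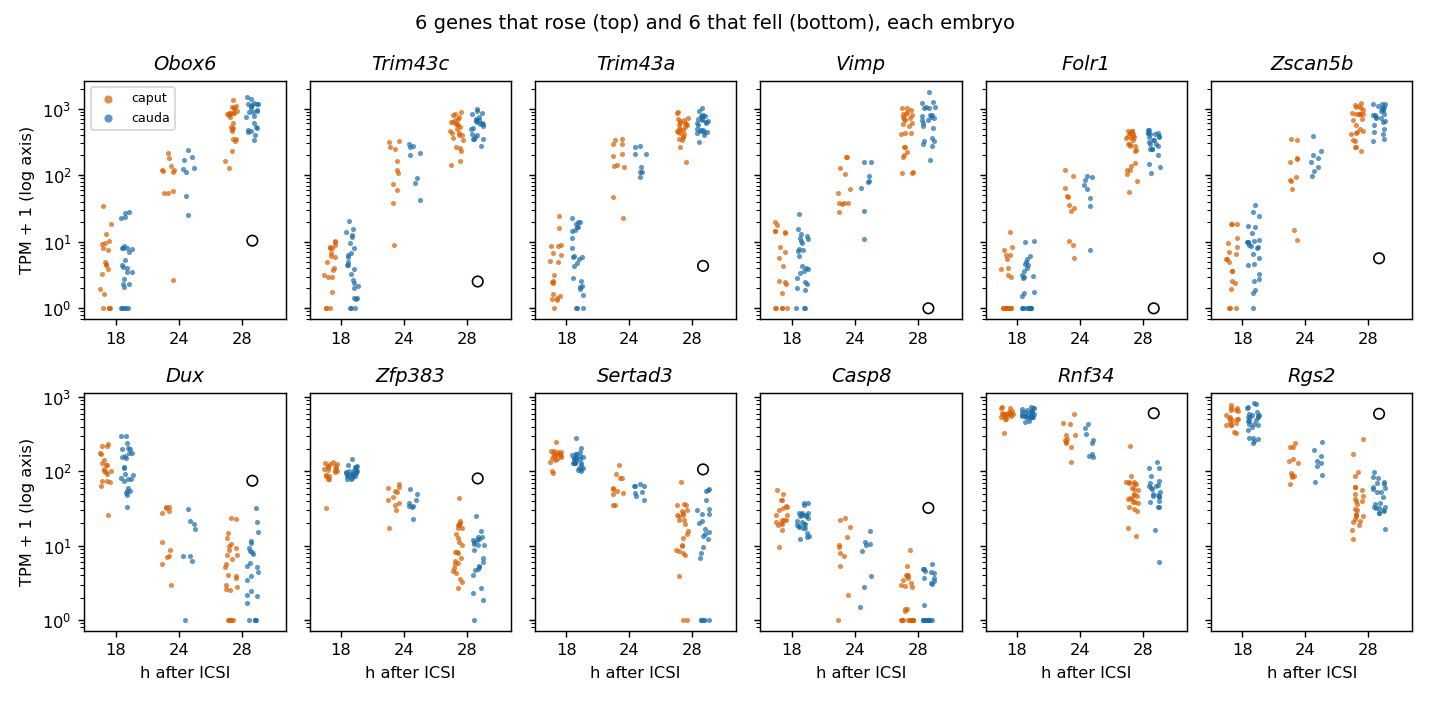
TPM + 1 (y axis, log scale) of 6 of the genes that rose most (top) and 6 of those that fell most (bottom) in each embryo at 18, 24 and 28 h after ICSI (x axis), orange for caput and blue for cauda sperm. In each panel the mean level at 24 h lies between those at 18 and 28 h, and the open circle, cauda 28 h replicate 1, lies with or near the 18 h embryos in every panel. The falling genes shown were picked by hand from the 10 with the largest fall, leaving out Ndufa8, Mitd1, Suclg1 and Tmem261.

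Promoter sequences of 4 genes are shown to set the main kinds of change side by side: Obox3 and Trim43a, which rose and belong to 2-cell gene families, Rps26, a ribosomal protein gene that rose, and Rnf34, which fell. Each runs 5′ to 3′ along the gene's strand from 250 bases before to 50 bases after the RefSeq start in GRCm38.p6. Capitals mark matches, on either strand, to the TATA box letters TATAAA, the NF-Y type letters CCAAT, the GC box letters GGGCGG, the bicoid-class homeodomain letters GGATTA or the ETS-type letters CCGGAAG.
Obox3 (chr7:15639728-15640027, minus strand): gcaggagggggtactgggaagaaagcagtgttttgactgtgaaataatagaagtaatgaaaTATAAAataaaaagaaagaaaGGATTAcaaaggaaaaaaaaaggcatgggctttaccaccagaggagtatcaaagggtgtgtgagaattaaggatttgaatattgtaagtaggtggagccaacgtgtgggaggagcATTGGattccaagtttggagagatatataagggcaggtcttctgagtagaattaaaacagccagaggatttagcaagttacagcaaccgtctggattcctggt
Trim43a (chr9:88580641-88580940, plus strand): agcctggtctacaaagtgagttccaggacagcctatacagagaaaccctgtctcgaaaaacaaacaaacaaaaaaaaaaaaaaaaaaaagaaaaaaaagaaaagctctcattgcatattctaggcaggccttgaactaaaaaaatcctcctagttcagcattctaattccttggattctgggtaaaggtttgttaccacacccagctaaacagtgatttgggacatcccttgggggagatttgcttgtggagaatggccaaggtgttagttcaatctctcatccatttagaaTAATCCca
Rps26 (chr10:128626457-128626756, minus strand): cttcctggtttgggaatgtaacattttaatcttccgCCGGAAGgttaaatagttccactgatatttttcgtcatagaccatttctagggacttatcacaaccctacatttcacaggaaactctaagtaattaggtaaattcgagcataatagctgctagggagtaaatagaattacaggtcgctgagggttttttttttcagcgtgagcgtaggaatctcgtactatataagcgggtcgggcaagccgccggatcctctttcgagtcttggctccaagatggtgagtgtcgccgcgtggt
Rnf34 (chr5:122849938-122850237, plus strand): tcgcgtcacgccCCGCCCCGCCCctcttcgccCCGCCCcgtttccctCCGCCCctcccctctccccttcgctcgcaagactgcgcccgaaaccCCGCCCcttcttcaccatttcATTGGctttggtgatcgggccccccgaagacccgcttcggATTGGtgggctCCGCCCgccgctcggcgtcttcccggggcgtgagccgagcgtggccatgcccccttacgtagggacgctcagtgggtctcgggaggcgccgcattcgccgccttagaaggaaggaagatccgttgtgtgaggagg
In the Obox3 window TATAAA begins 189 bases and GGATTA 168 bases before the start, and CCAAT, on the other strand, lies 53 bases before it. The Trim43a window has 1 match, to GGATTA on the other strand, 42 bases after the start. Rps26 has CCGGAAG 214 bases before the start. The Rnf34 window holds 6 matches to GGGCGG and 2 to CCAAT, all on the other strand.

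Over whole classes of genes the shares of these letters were as follows. Of the genes that rose at least 8-fold, 553 of 691 had a promoter in the table, and of those that fell at least 4-fold (524 genes, 3.93% of those tested), 422 had one. GGATTA was found in 9.04% of the former, in 4.74% of the latter and in 7.16% of all 27025 promoters of the table. TATAAA was in 6.87% and 11.4%, against 14.2% of all promoters. GGGCGG was in 61.3% and 51.2% against 35.9%, CCGGAAG in 18.8% and 19.0% against 9.12%, and CCAAT in 38.2% and 42.9% against 37.9%. The table holds a promoter for 10646 of the 13343 genes tested, so the background of all promoters is not that of the genes tested. Counts over the ribosomal protein and 2-cell burst lists would be void, since 74.4% and 65.4% of their tested members have a promoter in the table. A match is only a run of letters and no site was tested.

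Genes of the transient 2-cell programme did not move as a block. Of the 26 burst genes tested (29 symbols, of which 3 are not in the table), 17 rose, 7 fell and 2 were not called, with a median log2 change of 1.25, beside 38.8% rising and 40.8% falling of all genes. The 7 that fell were 5 Zscan4 genes (Zscan4a, b, c, d and f), Dux and Arg2 (arginase 2). Zscan4c, which marks the burst and is known to protect telomeres, had a median of 296 TPM at 18 h (61 to 713) and 151 TPM at 28 h (70.6 to 498), with a log2 change of -0.74 ± 0.16 (adjusted p = 1.33e-05). Its mean was higher in the 24 h embryos, at 567 TPM, and 2.31 TPM at the 4-cell stage. In contrast, Sp110, a nuclear body gene, had a median of 528 TPM at 18 h (289.8 to 725) and 1730.2 TPM at 28 h (662 to 3361), with a log2 change of 1.82 ± 0.08 (adjusted p = 5.62e-39). Pramef25, a PRAME family member, had a median of 42.7 TPM at 18 h (3.68 to 149.9) and 428 TPM at 28 h (30.7 to 792), with a log2 change of 3.31 ± 0.17 (adjusted p = 1.22e-33). Tdpoz2, of the MATH and BTB domain family, had a median of 11.8 TPM at 18 h (0 to 94) and 337 TPM at 28 h (2.78 to 1479), with a log2 change of 4.73 ± 0.26 (adjusted p = 1.37e-31). Tcstv3 and Zfp352 also rose, from means of 277 and 263 TPM to 1431 and 756 TPM, and had 6.97 and 2.33 TPM in 4-cell embryos. Together the 26 listed members made up 0.496% of TPM at 18 h, 1.15% at 28 h and 0.144% at the 4-cell stage. Many belong to multicopy families, whose reads can be shared among copies.

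Among those genes, 11 of 26 had an unadjusted interaction p under 0.05 between the caput and cauda changes, none of which passed adjustment. Pramef25 rose by 3.81 on the log2 scale in caput and 2.88 in cauda embryos, Tdpoz2 by 5.42 and 4.13, and Zfp352 by 1.88 and 1.25. Over all genes 1231 of 13343 had such a p. The cauda changes include cauda 28 h replicate 1, whose burst genes summed to 1641 TPM against a 28 h median of 11038 TPM. How far that embryo, 1 of 24 cauda 28 h embryos, changes the cauda rises was not tested. The changes of these genes per sperm source are not given without it. Without it 1348 of all genes had an unadjusted interaction p under 0.05 and 0 passed adjustment.

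The Obox family was split within a single cluster on chromosome 7. Obox1, Obox2 and Obox5 fell and Obox3, Obox6 and Crxos (a homeobox gene of the same cluster) rose, 6 of the 9 symbols being in the table (3 rose and 2 fell after quantile normalization). Of all genes 38.8% rose and 40.8% fell. Obox1 (chr7:15547257-15556846) had a median of 2683 TPM at 18 h (1932 to 4475) and 512 TPM at 28 h (225 to 6628), with a log2 change of -2.18 ± 0.14 (adjusted p = 1.96e-26). Obox3 (chr7:15625306-15639777) had a median of 98.8 TPM at 18 h (24.9 to 496) and 1521 TPM at 28 h (81.1 to 2925), with a log2 change of 3.79 ± 0.16 (adjusted p = 2.36e-39). Crxos (chr7:15882617-15904030) had a median of 35.9 TPM at 18 h (0 to 169) and 999.8 TPM at 28 h (9.49 to 4026), with a log2 change of 5.26 ± 0.27 (adjusted p = 7.81e-34). The 3 that rose had no overlap between times without cauda replicate 1, beside 3.08% of all genes, and the 3 that fell overlapped. In 4-cell embryos the paths parted again: Obox3 had a mean of 2.6 TPM, while Obox6 and Crxos had 2026 and 4064 TPM.

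**Figure D3:**
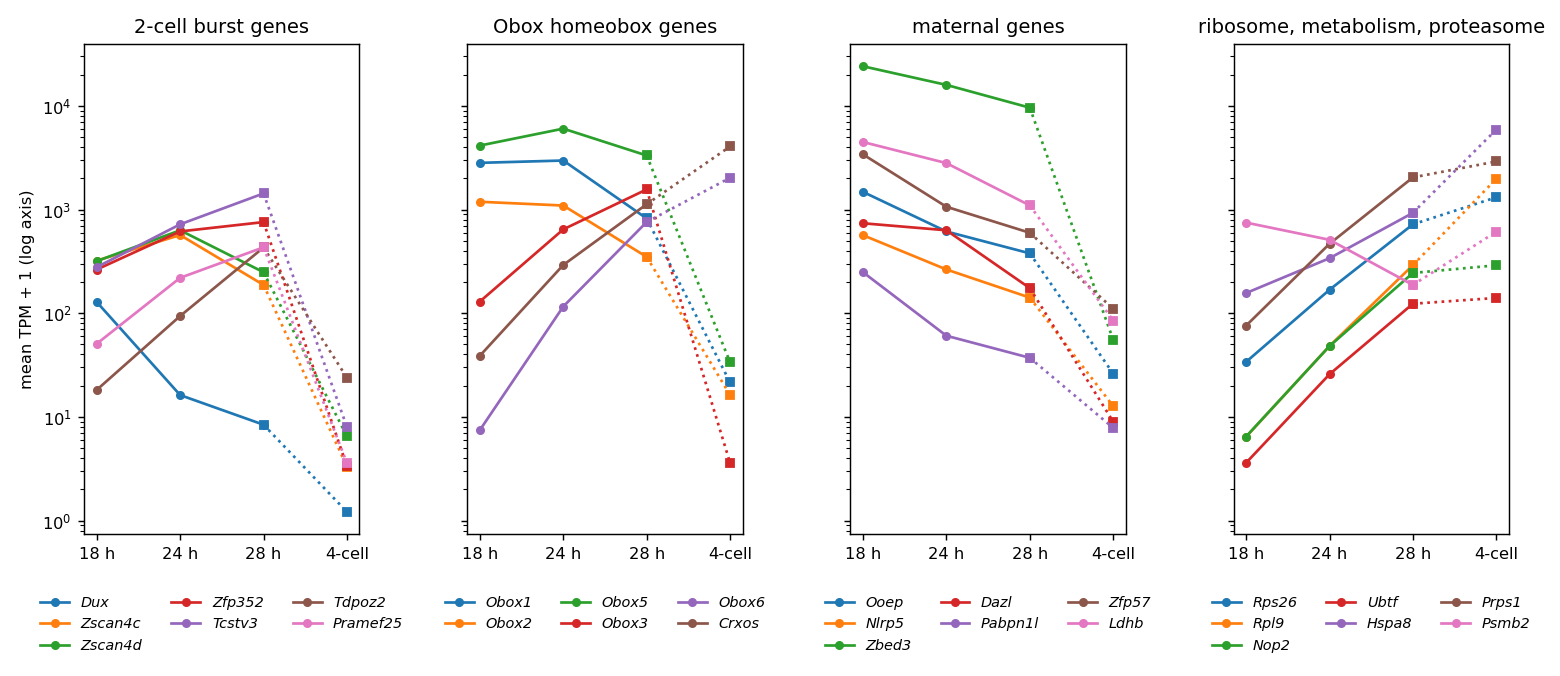
Mean TPM + 1 (y axis, log scale) of selected genes in 18 h, 24 h and 28 h 2-cell embryos (circles, then a square at 28 h) and, after a dotted line, in 4-cell embryos of a separately normalized table. Dux fell from 127 to 7.41 TPM and Obox1 from 2823 to 819.8 TPM between 18 and 28 h, Obox3 rose to 1565 TPM and was at 2.60 TPM at the 4-cell stage, and Rps26 and Prps1 had higher means at each later point.

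Of 21 genes known as regulators of genome activation, 16 rose, 4 fell and 1 was not called, with a median log2 change of 1.77, beside 38.8% rising and 40.8% falling of all genes. Gabpa, an ETS factor that binds many housekeeping promoters, had a median of 1.82 TPM at 18 h (0 to 7.57) and 184 TPM at 28 h (1.19 to 312), with a log2 change of 5.91 ± 0.20 (adjusted p = 7.74e-47). Kdm5b, an enzyme that removes methyl groups from histone H3, had a median of 7.1 TPM at 18 h (2.33 to 16.7) and 190.3 TPM at 28 h (7.01 to 333), with a log2 change of 4.52 ± 0.16 (adjusted p = 2.2e-46). Nr5a2, a nuclear receptor, had a median of 11.4 TPM at 18 h (3.77 to 20.5) and 61.3 TPM at 28 h (6.48 to 104), with a log2 change of 2.30 ± 0.12 (adjusted p = 2.5e-32). Rarg (a retinoic acid receptor) and Klf5 (a Krüppel-like factor) rose with log2 changes of 4.48 ± 0.20 and 4.17 ± 0.21. Dppa4 and Dppa2, which form a chromatin-binding pair, both rose, with log2 changes of 3.51 ± 0.22 and 1.38 ± 0.12. The 4 that fell were Nfya (a subunit of the CCAAT-binding factor NF-Y, -1.10 ± 0.10), Klf17 (-0.48 ± 0.06), Elf1 (-0.46 ± 0.13) and Trim24 (-0.31 ± 0.09). Of the other NF-Y subunits, Nfyb rose (1.89 ± 0.21) and Nfyc was not called (log2 change 0.07 ± 0.09, adjusted p = 0.443).

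Genes of the cytosolic ribosome rose almost without exception. Of 82 ribosomal protein genes, all tested, 81 rose and 1 fell, with a median log2 change of 2.90; 79 rose at least 2-fold and 38 at least 8-fold, beside 23.2% and 5.18% of all genes. Their summed share was 0.425% of TPM at 18 h, 2.89% at 28 h and 11.9% in 4-cell embryos. Per embryo the sum lay between 2777 and 6243 TPM at 18 h and had a median of 30149.8 TPM at 28 h. The lowest 28 h sum, 2954 TPM, was that of cauda replicate 1. Rps26 had a median of 30.2 TPM at 18 h (4.92 to 74) and 747 TPM at 28 h (16.8 to 1405), with a log2 change of 4.45 ± 0.17 (adjusted p = 2.52e-42). Rpl9 had a median of 4.17 TPM at 18 h (0 to 16.8) and 279 TPM at 28 h (4.65 to 762), with a log2 change of 5.76 ± 0.23 (adjusted p = 2.07e-42). Rpl36al rose with a log2 change of 4.10 ± 0.16. Without cauda replicate 1, 35 of the 82 were higher in every 28 h embryo than in any 18 h embryo, beside 3.08% of all genes. The exception was Rps15a, with a median of 25.9 TPM at 18 h (13 to 40.4) and 19.2 TPM at 28 h (9.01 to 31.3) and a log2 change of -0.42 ± 0.09 (adjusted p = 3.13e-05). Ribosomal protein genes have many processed pseudogenes, and how the authors' counting shared reads among them is not given in the sources used here.

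Genes that make ribosomal RNA and assemble ribosomes rose less uniformly. Of 73 tested (1 symbol is not in the table), 57 rose, 8 fell and 8 were not called, with a median log2 change of 1.479, beside 38.8% rising and 40.8% falling of all genes. Ubtf, which recruits RNA polymerase I, had a median of 2.47 TPM at 18 h (0 to 7.75) and 129 TPM at 28 h (0 to 244), with a log2 change of 5.10 ± 0.21 (adjusted p = 9.02e-41). Nop2, a methyltransferase of ribosomal RNA, had a median of 4.13 TPM at 18 h (0 to 25.4) and 270.1 TPM at 28 h (3.45 to 432), with a log2 change of 5.54 ± 0.23 (adjusted p = 1.26e-40). Nop16 and Rrp9, nucleolar assembly factors, rose with log2 changes of 5.71 ± 0.24 and 3.62 ± 0.16. These 4, named for their small p, were among the 8 of 73 that were free of overlap between times without cauda replicate 1, beside 3.08% of all genes. The 8 that fell were Taf1a, Pes1, Rrp1b, Utp18, Mphosph10, Noc4l, Nol6 and Ftsj3, of which 1 fell at least 2-fold.

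Other parts of protein synthesis are given beside the same shares of all genes, 38.8% rising and 40.8% falling. Of 44 translation initiation factor genes tested (45 symbols), 31 rose, 9 fell and 4 were not called, with a median log2 change of 0.88. Eif3a and Eif3c, core subunits of the factor that readies the small ribosomal subunit, rose with log2 changes of 2.77 ± 0.15 and 2.99 ± 0.17, as did Eif3j1 with 1.69 ± 0.09. Eif1b, a start codon selection factor, had a median of 917 TPM at 18 h (634 to 1546) and 210.5 TPM at 28 h (97.8 to 701), with a log2 change of -2.10 ± 0.09 (adjusted p = 2.22e-39). Of 23 genes of aminoacyl-tRNA synthetases and their scaffold, which charge tRNAs with amino acids, 9 rose and 14 fell, with a median log2 change of -0.87. Sars (the seryl enzyme) had a median of 55.4 TPM at 18 h (32.9 to 79.8) and 9.3 TPM at 28 h (0.96 to 74), with a log2 change of -2.50 ± 0.14 (adjusted p = 6.03e-31). Yars (the tyrosyl enzyme) had a median of 0 TPM at 18 h (0 to 2.89) and 18.3 TPM at 28 h (0 to 51.6), with a log2 change of 3.77 ± 0.18 (adjusted p = 6.53e-36). Eef1e1, a scaffold protein of the synthetase complex, and Nars (the asparaginyl enzyme) fell with log2 changes of -2.26 ± 0.13 and -1.35 ± 0.10. The 23 genes summed to a median of 2021 TPM per embryo at 18 h, 1427 at 28 h and 2690.0 in 4-cell embryos.

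**Figure D4:**
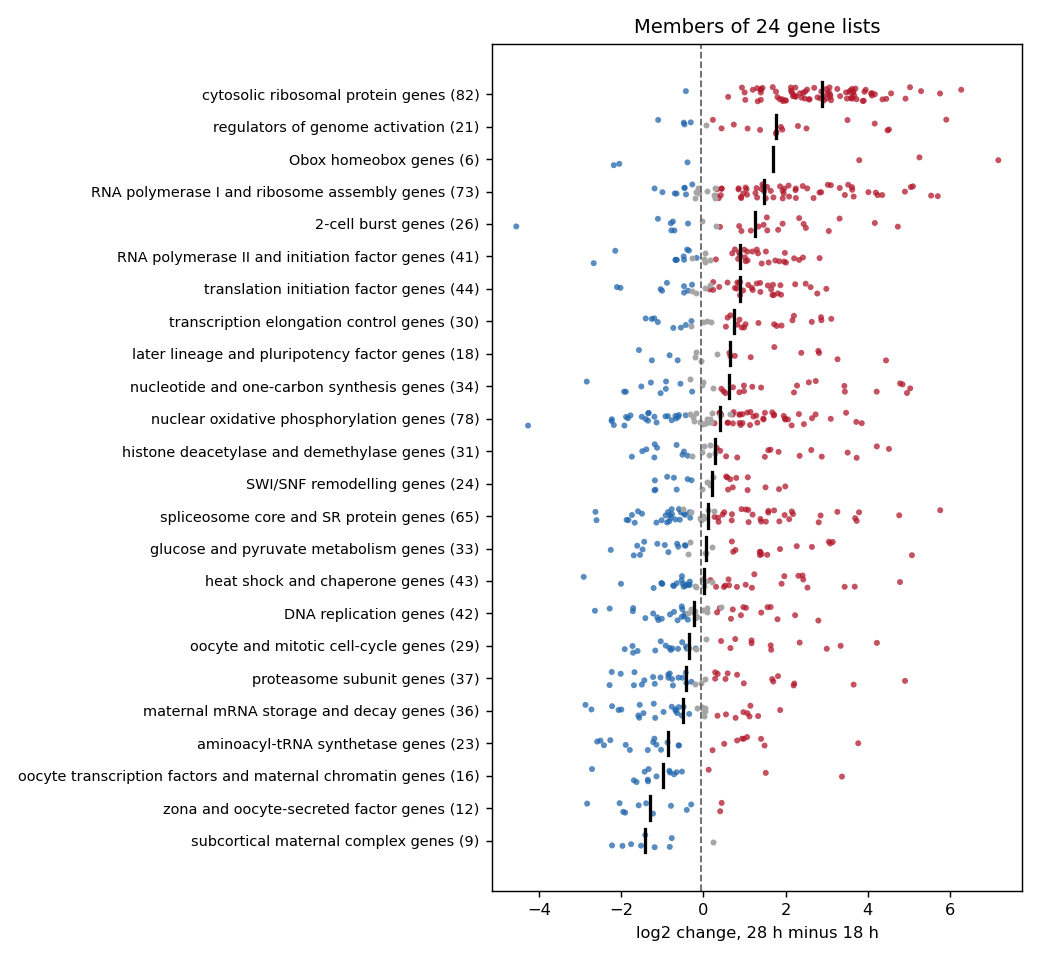
Log2 change from 18 to 28 h (x axis) of every tested member of 24 gene lists, red where higher and blue where lower at an adjusted p under 0.05 and grey where not called, with a black bar at the list's median and the number tested in brackets. The dashed line is the median of all 13343 genes, -0.07, and list medians run from -1.41 (subcortical maternal complex) to 2.90 (ribosomal proteins).

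Genes of the transcription and splicing apparatus are given beside 38.8% rising and 40.8% falling of all genes, and the spliceosome counts were near these shares. Of 41 RNA polymerase II and initiation factor genes tested (42 symbols), 26 rose, 10 fell and 5 were not called, with a median log2 change of 0.89. Polr2l and Polr2f, small subunits shared by the nuclear RNA polymerases, rose with log2 changes of 1.98 ± 0.09 and 1.85 ± 0.10, and Gtf2f1, of the initiation factor TFIIF, rose with 2.83 ± 0.13. Gtf2b, the single-chain initiation factor TFIIB, had a median of 844 TPM at 18 h (385 to 1576) and 204 TPM at 28 h (66.2 to 537), with a log2 change of -2.14 ± 0.10 (adjusted p = 1.87e-38). Of 30 elongation genes, 18 rose, 8 fell and 4 were not called, with a median log2 change of 0.74. Cdk9, the kinase that releases paused polymerase, had a median of 7.72 TPM at 18 h (0.96 to 15.4) and 60.5 TPM at 28 h (8.81 to 156), with a log2 change of 2.86 ± 0.13 (adjusted p = 3.02e-37), and Hexim1, which holds that kinase inactive, also rose (3.11 ± 0.18). Supt4a and Paf1, elongation factors, rose with log2 changes of 2.20 ± 0.13 and 1.78 ± 0.12. Of 65 spliceosome and SR protein genes (66 symbols), 31 rose, 26 fell and 8 were not called, with a median log2 change of 0.10 (29 and 29 rose and fell after quantile normalization). Snrnp35 of the minor spliceosome (5.76 ± 0.24), Snrpc of the particle that reads the splice donor site (3.79 ± 0.16) and the SR protein Srsf1 (2.81 ± 0.13) rose, and Prpf6, which joins the tri-snRNP, had a median of 220.0 TPM at 18 h (64.9 to 366) and 32.5 TPM at 28 h (10.5 to 230.5), with a log2 change of -2.62 ± 0.13 (adjusted p = 4.39e-35).

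Genes for folding and breakdown of proteins are given beside 38.8% rising and 40.8% falling of all genes, and the chaperone counts were near these shares. Of 43 heat shock and chaperone genes, 19 rose, 18 fell and 6 were not called, with a median log2 change of 0.02 (18 rose and 20 fell after quantile normalization). Hspa8, the constitutive Hsp70 chaperone, had a median of 159.6 TPM at 18 h (57.3 to 295) and 854 TPM at 28 h (86.8 to 2237), with a log2 change of 2.53 ± 0.12 (adjusted p = 1.56e-36). Cct6a, a subunit of the CCT folding chamber, and Hspa1a, an inducible Hsp70 gene, rose with log2 changes of 4.79 ± 0.23 and 3.68 ± 0.24. Pfdn4, a subunit of prefoldin, had a median of 491 TPM at 18 h (314 to 896) and 65.8 TPM at 28 h (18.4 to 403), with a log2 change of -2.91 ± 0.13 (adjusted p = 1.82e-39). Of 37 proteasome genes, 14 rose, 20 fell and 3 were not called, with a median log2 change of -0.41. Psmb2 and Psma2, subunits of the proteasome core, fell with log2 changes of -2.01 ± 0.09 and -1.68 ± 0.10, and Psmd9, an assembly chaperone, with -1.50 ± 0.09. Psme4, an activator cap, had a median of 66.2 TPM at 18 h (31.2 to 97.7) and 218 TPM at 28 h (62.1 to 309), with a log2 change of 1.68 ± 0.08 (adjusted p = 8.18e-35). The proteasome genes summed to a median of 6425 TPM per embryo at 18 h, 5039 at 28 h and 16759 in 4-cell embryos.

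Enzymes of nucleotide synthesis included large rises. Of 34 nucleotide and one-carbon genes, 20 rose, 10 fell and 4 were not called, with a median log2 change of 0.63, beside 38.8% rising and 40.8% falling of all genes. Without cauda replicate 1, 10 of the 34 were higher in every 28 h embryo than in any 18 h embryo, beside 3.08% of all genes. Prps1, which makes the ribose donor for nucleotides, had a median of 68.3 TPM at 18 h (14.4 to 158) and 2058 TPM at 28 h (66.5 to 3699.7), with a log2 change of 4.85 ± 0.17 (adjusted p = 1.47e-46). Ppat, the first committed enzyme of purine synthesis, had a median of 6.13 TPM at 18 h (0 to 24.1) and 203 TPM at 28 h (8.9 to 334), with a log2 change of 4.79 ± 0.18 (adjusted p = 1.44e-43). Adsl and Impdh1, later enzymes of the same pathway, rose with log2 changes of 3.43 ± 0.14 and 4.96 ± 0.21. Of 33 glucose and pyruvate genes tested (34 symbols), 15 rose, 13 fell and 5 were not called, with a median log2 change of 0.07 (15 and 15 rose and fell after quantile normalization). Ldhb, a lactate dehydrogenase chain stored by the oocyte, had a median of 4279.5 TPM at 18 h (2836 to 11008) and 826 TPM at 28 h (392 to 6340.0), with a log2 change of -2.25 ± 0.12 (adjusted p = 2.36e-32). Pgd, of the pentose phosphate pathway, had a median of 3.27 TPM at 18 h (0 to 18.8) and 129 TPM at 28 h (1.37 to 232), with a log2 change of 5.08 ± 0.22 (adjusted p = 3.43e-39). Mpc2, a mitochondrial pyruvate carrier subunit, and Slc2a3, a glucose transporter, rose with log2 changes of 3.09 ± 0.15 and 3.15 ± 0.20. Of 78 nuclear genes of oxidative phosphorylation, 41 rose, 23 fell and 14 were not called, with a median log2 change of 0.42 (34 and 26 rose and fell after quantile normalization). Atp5g1 of the ATP synthase (2.65 ± 0.14) and Ndufa2 of complex I (2.33 ± 0.15) rose, while Uqcrc2 of complex III fell (-2.23 ± 0.13).

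Genes of the maternal supply were counted beside the 38.8% of all genes that rose and the 40.8% that fell. Of 9 genes of the subcortical maternal complex, a protein lattice of the egg that early cleavage needs, 0 rose, 8 fell and 1 was not called, with a median log2 change of -1.41. Ooep had a median of 1449 TPM at 18 h (729 to 2875) and 285 TPM at 28 h (140.4 to 3249), with a log2 change of -2.22 ± 0.12 (adjusted p = 2.29e-32). Nlrp5 had a median of 588 TPM at 18 h (97.5 to 893) and 141 TPM at 28 h (58 to 363), with a log2 change of -1.97 ± 0.12 (adjusted p = 6.49e-28). Zbed3 was the most abundant, with a median of 24238 TPM at 18 h (7299 to 32650.0) and 8476 TPM at 28 h (2597 to 38969) and a log2 change of -1.52 ± 0.12 (adjusted p = 1.43e-21). Padi6 fell with a log2 change of -1.76 ± 0.10, and Khdc3 was not called (log2 change 0.23 ± 0.13, adjusted p = 0.1). Ranges at the 2 times overlapped for every one of the 9. The list summed to 3.2% of TPM at 18 h, 1.26% at 28 h and 0.0402% at the 4-cell stage, and its highest 28 h sum, 45756 TPM, was that of cauda replicate 1.

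Of 12 zona and oocyte-secreted genes tested (13 symbols), 2 rose and 10 fell, with a median log2 change of -1.31. Izumo1r, the egg's receptor for sperm (JUNO), had a median of 425 TPM at 18 h (266 to 596) and 67.9 TPM at 28 h (0.85 to 385), with a log2 change of -2.83 ± 0.17 (adjusted p = 3.05e-28). Oosp2 (an oocyte-secreted protein), Astl (the protease that hardens the zona pellucida) and Cd9 (a tetraspanin of gamete fusion) fell with log2 changes of -1.90 ± 0.11, -2.04 ± 0.16 and -1.39 ± 0.10. The 2 that rose, Zp3 and Oosp1, did so by 0.45 ± 0.10 and 0.41 ± 0.07. Cd9 had a mean of 889 TPM in 4-cell embryos, above its 18 h mean of 191 TPM, whereas Izumo1r, Oosp2 and Astl had at most 7.94 TPM.

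Of 36 genes for storage and decay of maternal mRNA, 9 rose, 20 fell and 7 were not called, with a median log2 change of -0.50. Dazl, an RNA-binding translation factor of germ cells, had a median of 755 TPM at 18 h (484 to 1098) and 164 TPM at 28 h (21.5 to 648), with a log2 change of -2.22 ± 0.11 (adjusted p = 4.21e-35). Pabpn1l, an oocyte poly(A)-binding protein, had a median of 237 TPM at 18 h (99.4 to 526) and 31.3 TPM at 28 h (8.86 to 104), with a log2 change of -2.87 ± 0.14 (adjusted p = 7.16e-36). Pabpc1l and Cnot11, a poly(A)-binding protein and a subunit of the CCR4-NOT deadenylase, fell with log2 changes of -2.72 ± 0.14 and -2.06 ± 0.12. Of the other CCR4-NOT genes listed, Cnot2, Cnot3, Cnot4 and Rqcd1 also fell, Cnot1, Cnot6, Cnot8 and Cnot10 rose, and Cnot6l and Cnot7 were not called. Of 16 oocyte transcription factor and maternal chromatin genes tested (17 symbols), 3 rose and 13 fell, with a median log2 change of -0.98. Zfp57, a zinc finger protein that protects imprinted methylation, had a median of 3392 TPM at 18 h (1967 to 4798) and 482 TPM at 28 h (281 to 3739.8), with a log2 change of -2.71 ± 0.11 (adjusted p = 1.79e-42). Trim28, the co-repressor that Zfp57 recruits, had a median of 9.97 TPM at 18 h (0 to 25.2) and 109 TPM at 28 h (7.38 to 319), with a log2 change of 3.37 ± 0.19 (adjusted p = 3.14e-31). Setdb1, a histone methyltransferase of the same repressor complex, and Dnmt3a, a DNA methyltransferase, fell with log2 changes of -1.62 ± 0.09 and -1.33 ± 0.08.

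Counts of cell-cycle and DNA replication genes stand beside 38.8% rising and 40.8% falling of all genes, with shares not far from these. Of 29 oocyte and mitotic cell-cycle genes tested (31 symbols), 11 rose, 15 fell and 3 were not called, with a median log2 change of -0.36. Cdk1, the mitotic kinase, had a median of 38.3 TPM at 18 h (22.6 to 89.5) and 371 TPM at 28 h (34.6 to 607), with a log2 change of 3.00 ± 0.13 (adjusted p = 1.52e-38). Cdk2 (2.34 ± 0.11), Ccna2 (cyclin A, 1.17 ± 0.06) and Cdc25c (a phosphatase that activates Cdk1, 3.34 ± 0.16) rose as well. Ccnb1, the cyclin partner of Cdk1, had a median of 2867 TPM at 18 h (1501 to 3675) and 1685 TPM at 28 h (1134 to 2753), with a log2 change of -0.75 ± 0.05 (adjusted p = 6.37e-24). Mos, a kinase of oocyte arrest, was not called (log2 change -0.18 ± 0.20, adjusted p = 0.426). Of 42 DNA replication genes, 13 rose, 19 fell and 10 were not called, with a median log2 change of -0.22 (13 and 26 rose and fell after quantile normalization). Of all 13343 genes 4635 rose and 6259 fell after that normalization. The 3 subunits of replication protein A, which coats single-stranded DNA, were called in opposite directions: Rpa2 had a median of 27.3 TPM at 18 h (1.93 to 56.9) and 205 TPM at 28 h (10.3 to 432), with a log2 change of 2.80 ± 0.18 (adjusted p = 5.28e-27), while Rpa1 and Rpa3 fell with log2 changes of -2.28 ± 0.17 and -1.71 ± 0.12. Pole2, a subunit of DNA polymerase epsilon, fell with -1.72 ± 0.13.

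Chromatin genes are likewise given beside 38.8% rising and 40.8% falling of all genes. Of 24 SWI/SNF remodelling genes tested (26 symbols), 11 rose, 8 fell and 5 were not called, with a median log2 change of 0.20. Smarcc1 and Smarcd1 rose (1.84 ± 0.13 and 1.99 ± 0.18), and Smarcb1 and Actl6a, other subunits of these complexes, fell (-1.17 ± 0.11 and -1.18 ± 0.11). Of 31 histone deacetylase and demethylase genes tested (33 symbols), 15 rose, 10 fell and 6 were not called, with a median log2 change of 0.28 (13 and 12 rose and fell after quantile normalization). Hdac1, a histone deacetylase, had a median of 40.7 TPM at 18 h (8.48 to 111) and 554 TPM at 28 h (9.3 to 827), with a log2 change of 3.73 ± 0.16 (adjusted p = 9.16e-39). Kdm4c and Kdm3a, which demethylate another lysine of histone H3, rose with log2 changes of 4.22 ± 0.18 and 3.51 ± 0.18.

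Of 26 genes of later lineages and pluripotency 18 were tested, while Sox2, Sox21, Tfap2a, Cdx2, Eomes, Elf5, Sox17 and Pdgfra were too low to test. Of the 18, 10 rose, 4 fell and 4 were not called, with a median log2 change of 0.65, beside 38.8% rising and 40.8% falling of all genes. Gata4 had a median of 30.6 TPM at 18 h (3.33 to 58.5) and 158 TPM at 28 h (35.4 to 406), with a log2 change of 2.38 ± 0.17 (adjusted p = 7.21e-25). Fgf4 had a median of 0 TPM at 18 h (0 to 2.11) and 27.4 TPM at 28 h (0 to 509.5), with a log2 change of 4.45 ± 0.24 (adjusted p = 1.34e-32). Tbx3 and Tead4, transcription factors of later embryos, rose with log2 changes of 3.27 ± 0.19 and 2.82 ± 0.21. Pou5f1 fell (-0.62 ± 0.09) and Nanog rose (0.66 ± 0.14), with lowest 18 h values of 606 and 45.7 TPM. The other genes that fell were Gata3, Gata6 and Tfcp2l1. At least 2-fold, 7 of the 18 rose and 2 fell, beside 23.2% and 19.4% of all genes.

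Many markers of other cells that could cling to an embryo were at or near 0, but some in each list were not. Of 18 cumulus cell markers 7 were tested, and the list summed to between 5.37 and 39.6 TPM per embryo at 18 h and between 13.2 and 272 at 28 h. Amh was at 0 in every embryo, Inha was above 0 in 1 embryo at 18 h and in none at 28 h, and Ptx3 was above 0 in 1 embryo at each time. Col4a1, Kitl and Has2 were above 0 in 39, 31 and 29 embryos at 18 h, with means of 1.65, 0.839 and 0.714 TPM. The higher 28 h sums were carried by Amhr2, the receptor of anti-Müllerian hormone, with a median of 0 TPM at 18 h (0 to 2.79) and 136 TPM at 28 h (1.57 to 216) and a log2 change of 6.22 ± 0.20 (adjusted p = 1.55e-48), and by Gja1, a gap junction gene (3.44 ± 0.23). Cyp19a1, aromatase, was above 0 in 43 embryos at 18 h and 30 at 28 h, with means of 12.4 and 2.84 TPM, and fell (-2.22 ± 0.24). Of 17 sperm and spermatid markers 6 were tested. The list summed to between 59.6 and 264 TPM per embryo at 18 h and between 147 and 545 at 28 h. Odf2 alone had means of 174 and 274 TPM and was above 0 in every embryo, and Acrv1 was above 0 in 23 embryos at 18 h. The protamine gene Prm2 had a median of 7.51 TPM at 18 h (0 to 25.5) and 0 TPM at 28 h (0 to 24.7), with a log2 change of -2.13 ± 0.25 (adjusted p = 1.4e-12), and Smcp and Spata18 were at 0 throughout. Tssk6, Ldhc and Odf2 rose with log2 changes of 2.74 ± 0.21, 3.10 ± 0.25 and 0.67 ± 0.11. Of the sperm list, Tnp1, Tnp2 and Prm3 were at 0 in every 18 h embryo. At 28 h these were above 0 in 4, 1 and 1 embryos. Odf1 and Pgk2 were above 0 in 20 and 12 embryos at 18 h and in 9 and 4 at 28 h. Of 15 epididymis markers 4 were tested, and the list summed to at most 37.8 TPM at 18 h and 60.1 at 28 h. Of these 4, 2 rose and 1 fell (1 and 2 after quantile normalization), beside 38.8% rising and 40.8% falling of all genes. Lcn8, Spint4, Rnase10 and Cst8 were at 0 in every embryo. Ptgds had a median of 0.32 TPM at 18 h (0 to 12.3) and 2.02 TPM at 28 h (0 to 41.2), with a log2 change of 0.70 ± 0.33 (adjusted p = 0.0444), and the call was lost under 8 of its 17 alternative settings.

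The changed genes followed different paths before and after. Of the 691 genes that rose at least 8-fold, 685 (99.1%) had a 24 h mean between their 18 h and 28 h means, as did 510 of the 524 (97.3%) that fell at least 4-fold. Among genes that rose or fell at least 2-fold the shares were 84.8% and 84.6%. Genes picked for a wide gap between 18 and 28 h leave much room for a mean in between, and the 24 h embryos carry another session number. A gradual course was not tested. The 691 made up 0.675% of TPM at 18 h and 12.1% at 28 h, and the 524 made up 14.0% and 2.93%. In 4-cell embryos 400 of the 691 (57.9%) had a higher mean than at 28 h, near the 55.5% of the 3096 genes that rose at least 2-fold. Of the 691, 59 were lower there by a factor of more than 8, as were 302 of the 3096. Obox3, Tdpoz2 and Pramef25 were among these 59, as were Tdpoz4, Rfpl4b, Klhl11 and Tgs1, which were chosen after their values were seen and had means of 1069, 477, 259 and 235 TPM at 28 h. Of the 524 genes that fell, 169 (32.3%) had a higher mean at the 4-cell stage than at 28 h. A further set of 219 genes had a 24 h mean of at least 5 TPM that was over 1.5 times both other means, and there time and session cannot be told apart.

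Genes that rose tended to be short. The median gene span, from the RefSeq table of the same build, was 11.4 kb for the 691 genes that rose at least 8-fold, 20.3 kb for the 524 that fell at least 4-fold and 23.0 kb for all genes tested. Among genes under 5 kb (1802 genes), 38.6% rose and 15.1% fell at least 2-fold. Among genes of 100 kb or more (1772 genes), 7.45% rose and 19.4% fell at least 2-fold. The median log2 change went from 0.52 in the former to -0.35 in the latter, and in each session and each sperm source the same 2 classes had medians of opposite sign. Without ribosomal protein genes 36.3% of the genes under 5 kb rose at least 2-fold. Transcript lengths differed less, with medians of 2208 bases for the genes that rose at least 8-fold, 2023 for those that fell at least 4-fold and 2698 for all. These are descriptions over genes, which are not independent replicates.

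**Figure D5:**
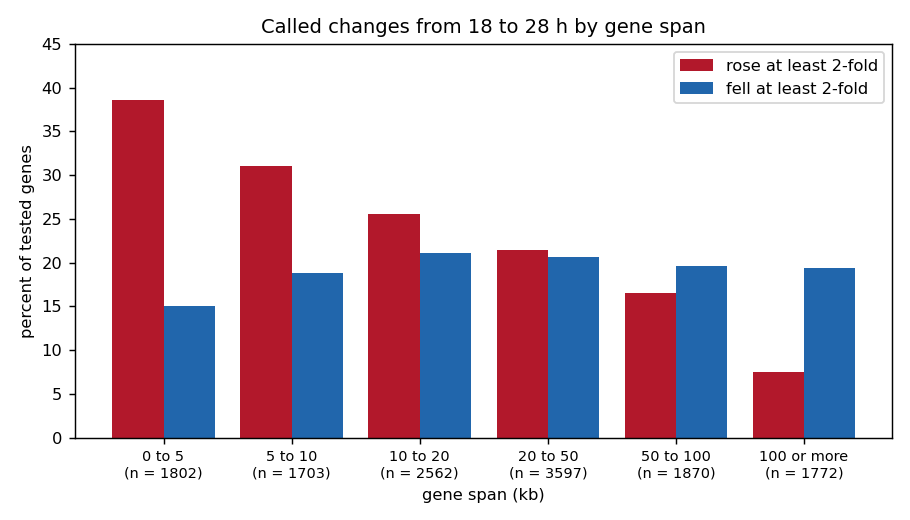
Percent of tested genes (y axis) that were called and rose (red) or fell (blue) at least 2-fold from 18 to 28 h, by gene span in kb (x axis, number of genes in brackets). The share that rose goes from 38.6% under 5 kb to 7.45% at 100 kb or more, while the share that fell lies between 15.1% and 21.1%.

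The number of genes detected per embryo did not differ beyond the spread at 1 TPM, but the counting threshold mattered. Embryos at 28 h had 139.5 more genes at 1 TPM or more than those at 18 h, adjusted for sperm source and session (two-sided permutation of times within session and sperm source, 100000 resamples, p = 0.178). The 18 h embryos had a mean of 11403 ± 425 (SD, n = 44) and the 28 h embryos 11562 ± 558 (SD, n = 49). At 5 TPM the difference was 549.5 genes more at 28 h (p = 1e-05, the smallest the resamples can give), and at 0.1 TPM it was -340.9, fewer at 28 h (p = 0.0103). In sessions 114, 122 and 126 alone the difference at 1 TPM was 239, 362 and -158 genes (p = 0.327, 0.0172 and 0.304). At single genes, 301 went from a median under 1 TPM at 18 h to at least 10 TPM at 28 h, and 23 went from at least 10 TPM to under 1 TPM.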

How the data were processed

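Single FVB embryos were sequenced by Smart-seq2, per the labels. The submitters' processing notes name Bowtie and mm10; versions, counting tool and annotation are not given in the sources used here. The authors deposited TPM for 23845 genes, and each 2-cell library sums to between 999998.97 and 1000000.78. Symbols that appeared as dates (27) were recovered through the accompanying transcript IDs. Depth is unknown, so precision rests on the spread between embryos. Nothing says that they came from separate litters, so p-values measure only the spread between these embryos.

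Genes at 1 TPM or more in 22 or more embryos (50% of the smaller time group) entered the fit. log2(TPM + 1) was modelled with limma 3.58.1 in R 4.3.3 on time, sperm source and session (intensity trend, robust variances), and a fit of 4 group means with session gave the change per sperm source and the interaction. P-values were adjusted by Benjamini-Hochberg over all genes tested. A fold is the back-transformed log2 change, which understates changes of low genes. The rule for named genes took the 10 largest changes each way among calls averaging 5 TPM or more at the higher time, leaving out predicted genes, clones and pseudogenes, then up to 4 called members of each list by smallest p, and members that a sentence needs. The members and lists were chosen with earlier results of these data known. Gene positions and promoters are from RefSeq GRCm38.p6, and transcript lengths from GENCODE M21. Overlapping and antisense genes cannot be told apart, since the library kit named does not mark strand. Alternatives varied the pseudocount (0.1), the filter (none, 5 TPM), the scaling, the variance model, the session term, single sessions, weak libraries, means per session and a block on embryo number. Leaving out cauda 28 h replicate 1 and the 8-fold minimum were chosen after seeing the data. 1 item of the gene lists is not reported here by name. Tables of other stages and experiments, apart from the first 4-cell table, were not used here.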

Additional observations from a re-analysis of the deposited data

Results flagged for a closer look

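In 6 of 122 values checked (the named genes and 2 further measures in groups of 4 to 10 embryos), 1 of the 8 cauda embryos at 24 h stood far from the other 7. Chance alone marks about 1 group in 20 in this way. Zscan5b was at 391.0 TPM in 1 embryo and between 95.7 and 229 TPM in the others. Suclg1 was at 27.79 TPM against 4.18 to 15.2 TPM, and Zfp57 at 1733 TPM against 829.6 to 1247 TPM. Gja1 was at 22.07 TPM against 0 to 8.89 TPM, Ptgds at 38.44 TPM against 0 to 11.4 TPM, and Tead4 at 0.9 TPM against 0 to 0.25 TPM. The 24 h embryos enter none of the tests.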

How the results depend on the processing

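Apart from fold minimums and single sessions, the alternatives gave 4252 to 5779 rising and 4507 to 6259 falling genes, 4102 to 5218 and 3374 to 5419 in caput embryos, and 3786 to 4821 and 4318 to 5734 in cauda embryos. Minimum folds of 2 and 8 (the latter chosen after seeing the data) left 3096 and 691 rising and 2595 and 52 falling genes. With fewer embryos in single sessions, caput calls were 3080 rising and 2183 falling in session 114 and 3211 and 2411 in session 122. Cauda calls were 2994 rising and 3117 falling in session 114, 3286 falling in session 122 and 2969 rising in session 126. The time by sperm source test called 3 genes in session 126 alone (Tsga8, Tigd3 and Nckipsd, each with an adjusted p of 0.0484 in limma) and 1 without 5 weak libraries (Map3k4, adjusted p = 0.0261), all outside the rule for named genes; the cause was not tested. The difference in detected genes was -340.9 at 0.1 TPM, 549.5 at 5 TPM, 361.6 in session 122 and -158.0 in session 126, and the cause was not tested. A replicate block on the embryo number gave 5170 rising and 5433 falling genes and changed no call of a named gene. The block gave 4912 and 4302 in caput and 4494 and 5125 in cauda embryos. The median correlation of same-numbered embryos lay between -0.051 and 0.0055. Single pairs ran from -0.3 to 0.169, both between caput and cauda 28 h embryos. Same-numbered embryos can carry different session numbers, so this check cannot decide whether embryos were paired. Of 2040 alternative values for 120 named genes, 2032 kept direction and call, none reversed, and the 8 lost calls were all of Ptgds. Depth, which is unknown, limits what a value of 0 means.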
